A study of Mus musculus with 6 samples.

Results

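The lysosomal genes described here are 36 genes for lysosomal membrane proteins, hydrolases and their cofactors, chosen by symbol, and all genes whose symbol begins with Atp6v0 or Atp6v1, which encode subunits of the vacuolar proton pump. The rule found 58 of the 39174 genes in the tables, 36 listed by symbol and 22 of the pump. By role they comprise 6 membrane proteins, 9 proteases, 13 enzymes that degrade glycans, 8 lipid-degrading enzymes and lipid cofactors, and 9 V0 and 13 V1 pump genes. They were measured by RNA sequencing of whole sciatic nerves from 3 wild-type mice, numbered 2, 4 and 5, and 3 Plekhg5-deficient mice, numbered 2, 3 and 5, with 1 library per animal. The animals were 12 months old by the study's text (adult in the labels), were kept free of specific pathogens, and received no treatment that the sources name. How the Plekhg5 allele was made and the sex of the animals were not stated in the sources used here. The study had examined myelin infoldings, the lysosomal protein Lamp1 and autophagy in Plekhg5-deficient nerves, and sequenced RNA to ask whether transcription differed between the genotypes.

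Lysosomes degrade macromolecules that arrive by endocytosis, phagocytosis and autophagy. Their hydrolases need an acidic interior, which the vacuolar ATPase maintains: its cytosolic V1 sector hydrolyses ATP, and its membrane-embedded V0 sector carries protons into the lumen. Many lysosomal genes carry a CLEAR element, an E-box that TFEB, TFE3 and MITF recognise. In peripheral nerve, Schwann cells and macrophages degrade myelin, and loss of Galc or Arsa, which act on the myelin lipids galactosylceramide and sulphatide, leads to Krabbe disease and metachromatic leukodystrophy.

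Promoters were searched for the palindrome TCACGTGA, which is the centre of the CLEAR element, and for its core CACGTG, which every TCACGTGA contains. RefSeq promoters of GRCm38.p6, from 250 bases before to 50 bases after the transcription start, were given for 48 of the 58 genes. TCACGTGA was found in 8 of the 48 (16.7%) and in 304 of all 27025 genes with a promoter (1.12%). CACGTG was found in 16 of the 48 (33.3%) and in 8.09% of all genes with a promoter. That many lysosomal genes carry the element was known in advance, so these shares describe the list and test nothing. The holders of TCACGTGA were Mcoln1, Cln3, Ctsa, Ctsd, Gla, Atp6v0d1, Atp6v0e and Atp6v1a, so that every role except the lipid-degrading enzymes was among them. The windows below show the element where it lies upstream of the start, with the motif in capitals and up to 11 bases on either side, read 5′ to 3′ on the strand of the gene. The start meant here is that of the RefSeq promoter. It can differ from the gene coordinates given further below, so a window may reach into or lie within those coordinates. In Atp6v0d1 and Atp6v0e it lies across or after the start and is not shown. A further occurrence listed for Ctsa, after the start, is not shown either. Arsa and Lamp1 are added because the results return to them; both hold the shorter core alone, and Lamp1 holds it at 4 places, at 61, 45, 28 and 15 bases before the start, of which 2 are shown.
Mcoln1, chr8:3500462-3500491, plus strand: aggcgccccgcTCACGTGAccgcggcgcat
Cln3, chr7:126583340-126583369, minus strand: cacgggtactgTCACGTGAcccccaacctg
Ctsa, chr2:164833749-164833772, plus strand: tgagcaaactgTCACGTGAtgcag
Ctsd, chr7:142387908-142387937, minus strand: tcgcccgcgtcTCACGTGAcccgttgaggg
Gla, distal copy, chrX:134601215-134601244, minus strand: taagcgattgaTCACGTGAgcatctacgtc
Gla, proximal copy, chrX:134601182-134601211, minus strand: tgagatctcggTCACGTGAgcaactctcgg
Atp6v1a, chr16:44139373-44139402, minus strand: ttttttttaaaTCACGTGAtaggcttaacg
Lamp1, most distal copy, chr8:13159089-13159116, plus strand: gggcaagatatCACGTGgtccagcgccc
Lamp1, copy nearer the start, chr8:13159122-13159149, plus strand: atgccgactggCACGTGaccacatcacg
Arsa, chr15:89477425-89477451, minus strand: caactcagtgtCACGTGttgtctgctc

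The libraries differed in what else they held. Plekhg5 was at 3.65 to 5.26 FPKM (fragments per kilobase of transcript, relative to all mapped fragments) in the wild-type nerves and at 0.0521 to 0.141 FPKM in the Plekhg5-deficient nerves. The summed FPKM of 10 Schwann cell markers lay between 10760 and 19424 in the 6 libraries. In Plekhg5-deficient nerve 5, 16.0% of all FPKM came from haemoglobin, and at most 2.56% in the others. The summed FPKM of 6 skeletal muscle markers was 13103, 2032 and 8558 in wild-type nerves 2, 4 and 5. It was 1780, 198 and 35059 in Plekhg5-deficient nerves 2, 3 and 5. That of 5 adipocyte markers lay between 468 and 2563. T-cell and B-cell markers summed to 76.6 and 108 FPKM in wild-type nerve 5 and to at most 3.46 and 5.06 FPKM in any other library. The summed FPKM of 12 macrophage markers (of 13 listed, 1 was not found) was 666 and 692 in the nerves numbered 5 of either genotype and 293 to 345 in the other nerves. Beside many of the results that follow, values without both nerves numbered 5 are given as well.

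Of the 58 genes, 55 reached a mean of 0.1 FPKM in at least 1 genotype and were tested. Atp6v1b1 and Atp6v1g3 were listed at 0 in all 6 libraries, and Atp6v1e2 was above 0 in Plekhg5-deficient nerve 3 alone, at 0.0215 FPKM. Levels are given as FPKM divided by a size factor for each library. The tested genes ran from 0.147 FPKM (Atp6v0a4) to 306 FPKM (Psap) in the mean of the 6 libraries, with a median of 28.6. Means of at least 100 FPKM were measured for 10 genes and of at least 10 FPKM for 40 genes. The 10 most abundant were, in falling order, Psap, Lamp1, Ctsd, Atp6v0e, Atp6v1f, Atp6v0c, Atp6v1e1, Lamp2, Ctsb and Grn. The number of reads is unknown. The 95% interval that Cufflinks gave a value had a median half-width of 7.25% of the value, from 2.11% for Lamp1 to 335% for Atp6v0a4.

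None of the 55 genes passed the test between genotypes, limma with Benjamini-Hochberg adjustment over the 21285 genes tested. Adjusted p was 0.857 or above for every one. Over all genes the same test called 2 lower and 6 higher in Plekhg5-deficient nerves, 0.0094% and 0.0282% of those tested. At an unadjusted p under 0.05, 1 of the 55 was lower (Arsb) and 3 were higher (Atp6v1g1, Lamp2 and Ppt1), where 2.69% of all genes were lower and 2.41% higher. The values of the genotypes did not overlap for 3 genes that were lower (Arsb, Arsa and Atp6v0a2) and for 4 that were higher (Atp6v1g1, Ppt1, Lamp2 and Mcoln1), where 5.88% of all genes were lower and 5.69% higher without overlap. These counts depended on the scaling. With FPKM as deposited, which moved the median log2 fold change of all genes by -0.10, 8 of the 55 were lower and 1 was higher without overlap, where 8.66% of all genes were lower and 2.46% higher. Without both nerves numbered 5, 11 were lower and 8 higher without overlap, in a comparison of 2 nerves with 2 in which 18.3% of all genes were lower and 17.9% higher.

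The log2 fold changes, Plekhg5-deficient minus wild-type on log2(FPKM + 1), lay between -0.59 and 0.60, with 26 below 0 and 29 above 0. Their median was 0.028, and that of all genes tested was 0.0065. The means of 51 of the 55 genes were within 1.5-fold of each other in the 2 genotypes. Of the 40 genes with at least 10 FPKM, 30 had a 95% interval of the fold change that lay within 2-fold in both directions. The other 10 were Atp6v0e2, Atp6v1a, Atp6v1b2, Atp6v1d, Atp6v1e1, Atp6v1g1, Atp6v1g2, Atp6v1h, Ctsh and Ctss, so that 8 were pump genes. The p-values measure the spread among these animals, and an exact permutation test of 3 animals against 3 could not give a p below 0.1.

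**Figure D1:**
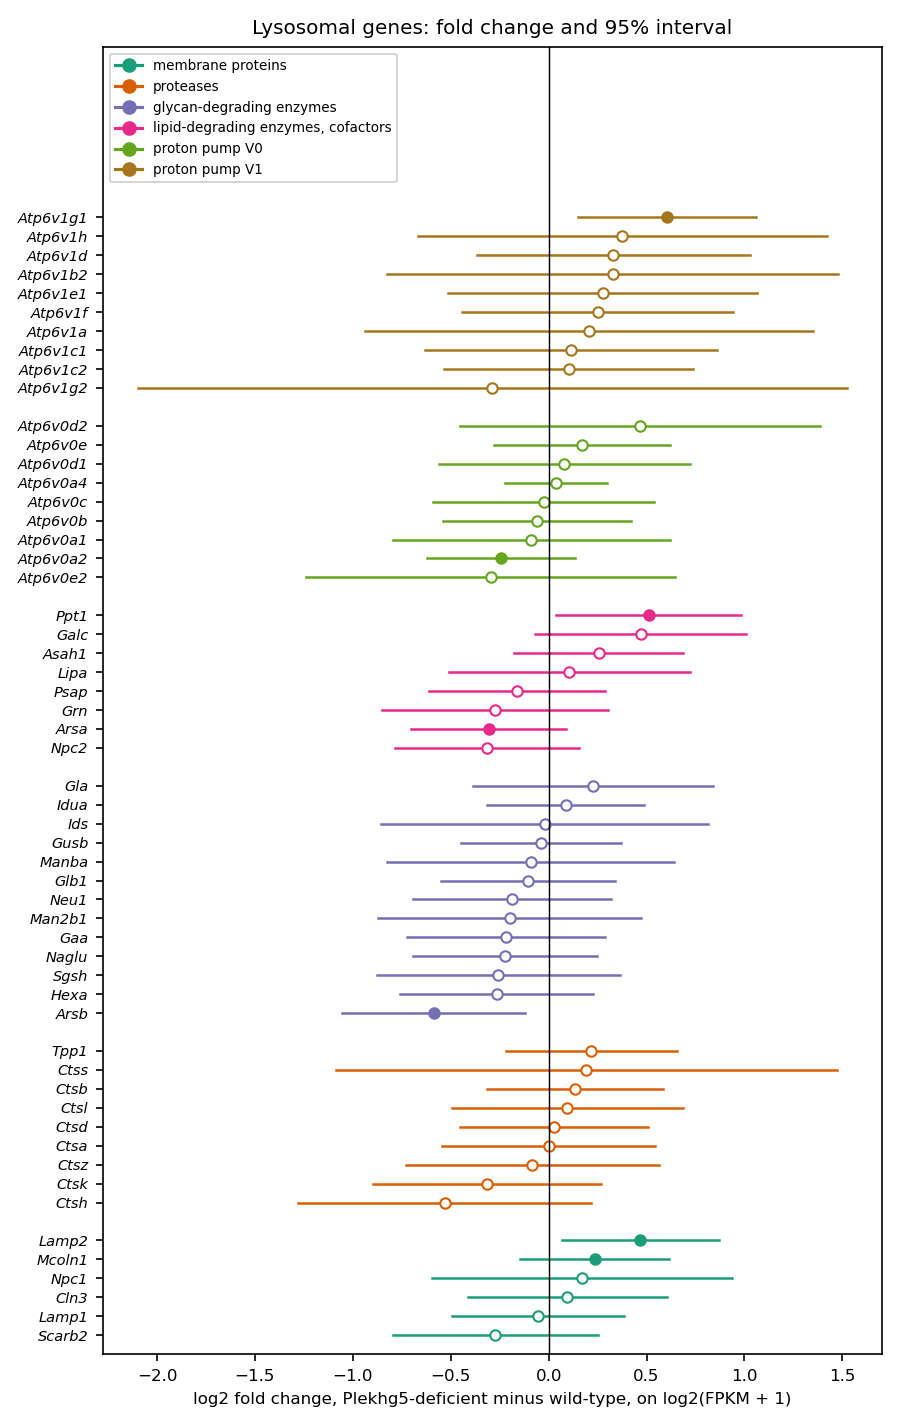
Log2 fold change of the 55 tested genes (x axis, Plekhg5-deficient minus wild-type on log2(FPKM + 1)) by role (y axis and colour), with 95% intervals from limma as bars; filled points mark the 7 genes whose genotypes did not overlap. Only the intervals of Arsb, Lamp2, Ppt1 and Atp6v1g1 leave out 0 before adjustment, and the V1 intervals are among the widest.

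Among the membrane proteins, the Lamp1 values of the genotypes overlapped and Lamp2 was higher in every Plekhg5-deficient nerve than in any wild-type nerve. Lamp1 (chromosome 8, from 13159135 to 13175338 in GRCm38) encodes one of the most abundant proteins of the lysosomal membrane. It had 209, 249 and 253 FPKM in the wild-type and 226, 216 and 242 FPKM in the deficient animals. The values overlapped, and the spread of Lamp1 over the 6 libraries, 1.21-fold from lowest to highest, was the smallest of the 55 genes. Its log2 fold change was -0.05 (standard error, SE, 0.18), and the 95% interval of the fold change ran from 0.711 to 1.31. Leaving out both nerves numbered 5 gave -0.06.

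Lamp2 (chromosome X, from 38401357 to 38456454) encodes the related membrane protein that also serves chaperone-mediated autophagy. It stood at 109, 109 and 95.01 FPKM in wild-type animals, against 137, 159 and 139 FPKM in the deficient animals, so that all 3 deficient nerves were above all 3 wild-type nerves. The mean was 105 ± 8.22 FPKM in wild-type and 145 ± 12.02 FPKM in Plekhg5-deficient nerves (SD, n = 3 each), 1.39-fold higher, with a log2 fold change of 0.47 (SE 0.17, unadjusted p = 0.0284, adjusted p = 0.941 from limma). Without both nerves numbered 5 the log2 fold change was 0.41, and with FPKM as deposited it was 0.30 and the groups overlapped.

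Mcoln1, the calcium channel TRPML1 of the lysosomal membrane, was at 23.8, 22.4 and 24.3 FPKM in wild-type and at 24.6, 31.1 and 28.2 FPKM in the deficient nerves. The nearest values of the groups, 24.3 and 24.6 FPKM, were almost equal, and the log2 fold change was 0.24 (SE 0.16, adjusted p = 0.974). It was again 0.24 without both nerves numbered 5, and with FPKM as deposited the groups overlapped. Of the other membrane proteins, Scarb2, the receptor that carries glucocerebrosidase to lysosomes, had a log2 fold change of -0.27. Cln3, mutated in a juvenile form of Batten disease, had one of 0.10, and Npc1, which exports cholesterol, one of 0.17. Their groups overlapped. The median of the 6 membrane proteins was 0.13, and 0.18 without both nerves numbered 5.

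**Figure D2:**
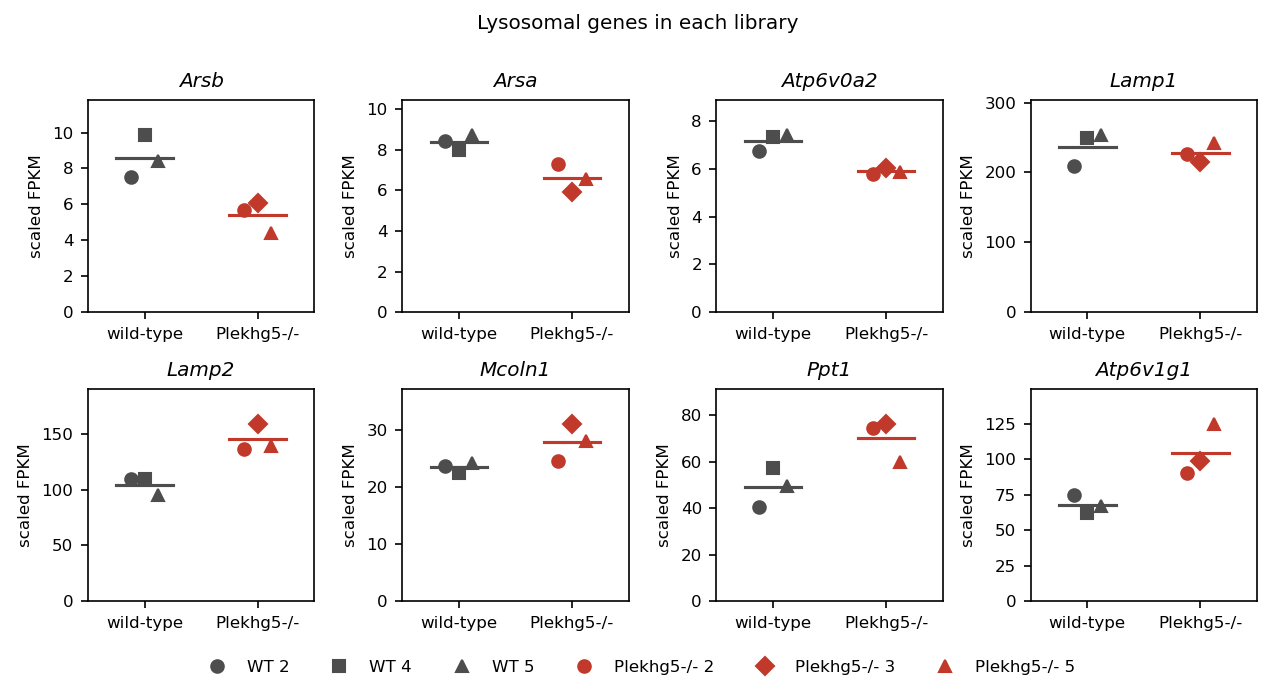
Scaled FPKM (y axes, from 0) of the 7 genes whose genotypes did not overlap and of Lamp1 in the 3 wild-type (grey) and 3 Plekhg5-deficient nerves (red), 1 point per animal with the marker shape giving its number and a line at the mean. Lamp1 shows overlapping groups at 209 to 253 FPKM, whereas Lamp2 lies at 95.01 to 109 in wild-type and 137 to 159 in Plekhg5-deficient nerves.

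The proteases showed no member with separate groups and none at an unadjusted p under 0.05. Ctsd, the main aspartyl protease of lysosomes, was at 201, 208 and 192 FPKM in wild-type and at 169, 208 and 241 FPKM in the deficient nerves. Ctsb, a cysteine protease, was at 126, 128 and 93.6 FPKM in wild-type and at 125, 129 and 124 FPKM in the deficient nerves. Both pairs of groups overlapped, with log2 fold changes of 0.03 and 0.13. Ctsh had the largest difference of the group, -0.53 (SE 0.31), and 1 library stood apart: its 56.3 FPKM in wild-type nerve 5 was set against 28.9 and 26.0 in the other wild-type nerves and 24.3, 20.2 and 27.6 in Plekhg5-deficient nerves. Without wild-type nerve 5 it was -0.20. Ctss, the cathepsin of antigen-presenting cells, was highest in both nerves numbered 5, at 35.1 FPKM in wild-type and 53.2 FPKM in Plekhg5-deficient, and at 14.1 to 19.2 FPKM in the other 4. Ctsa, Ctsl, Ctsz and Tpp1 had log2 fold changes between -0.08 and 0.22. Ctsk, known as the collagen-degrading cathepsin of osteoclasts, was at 6.21 to 11.7 FPKM with a log2 fold change of -0.32. Of 4 osteoclast markers, Calcr and Oscar were at 0 to 0.55 FPKM, Mmp9 at 1.15 to 3.62 FPKM and Acp5, which macrophages also express, at 14.3 to 67.4 FPKM. The median of the 9 proteases was 0.03, and its sign depended on the libraries and the scaling. It was -0.08 without both nerves numbered 5 and -0.14 with FPKM as deposited, each with 7 of the 9 below 0, and leaving out 1 library at a time moved it to between -0.10 and 0.12.

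Of the 13 glycan-degrading enzymes, 11 had a log2 fold change below 0 and 2 above 0, with a median of -0.19, where 10417 of the 21285 genes tested were below 0. Without both nerves numbered 5, 8 of the 13 were below 0. Arsb (chromosome 13, from 93771679 to 93943016) removes sulphate from dermatan sulphate and chondroitin sulphate. It showed 7.50, 9.85 and 8.40 FPKM in wild-type and 5.68, 6.06 and 4.42 FPKM in Plekhg5-deficient animals, and the groups did not overlap. The mean was 8.59 ± 1.18 FPKM in wild-type and 5.39 ± 0.858 FPKM in Plekhg5-deficient nerves (SD, n = 3 each), 1.59-fold lower, with a log2 fold change of -0.59 (SE 0.20, unadjusted p = 0.0212, adjusted p = 0.905 from limma). Without both nerves numbered 5 the log2 fold change was -0.50. The exons of Arsb overlap Gm26527, a noncoding gene on the opposite strand with 1726 bases of shared sequence, which had 13.2, 14.1 and 9.57 FPKM in the wild-type and 9.53, 10.2 and 11.9 FPKM in the deficient animals. The strand setting of the counting was not stated in those sources, so reads of the pair may not have been told apart. The mean of the sum of both was 0.764 of the wild-type mean in Plekhg5-deficient nerves.

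The enzymes of heparan sulphate breakdown gave differences that did not pass the test. Ids, the most abundant of the glycan-degrading enzymes, was at 62.4, 107 and 63.4 FPKM in wild-type and at 87.2, 98.5 and 47.1 FPKM in the deficient nerves, with a log2 fold change of -0.02. Sgsh and Naglu, at mean levels of 2.69 and 6.04 FPKM, had log2 fold changes of -0.26 and -0.22, and Idua had one of 0.09. Gaa, which degrades glycogen, was at 37.9, 34.5 and 27.6 FPKM in wild-type and at 32.9, 30.4 and 22.6 FPKM in the deficient nerves. In both genotypes the nerve numbered 5 was the lowest for Gaa, and its log2 fold change was -0.22. Among the enzymes that trim glycolipids and glycoproteins, Hexa had a log2 fold change of -0.27, Man2b1 one of -0.20, Neu1 one of -0.19, Glb1 one of -0.11 and Manba one of -0.09. The log2 fold change of Gusb, the beta-glucuronidase, was -0.04. Gla, the alpha-galactosidase lost in Fabry disease, was above 0 at 0.23, with 3.82, 2.91 and 2.24 FPKM in wild-type and 3.56, 4.85 and 2.68 FPKM in Plekhg5-deficient nerves. With FPKM as deposited the median of the 13 enzymes was -0.33, and without both nerves numbered 5 it was -0.09.

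The lipid-degrading enzymes and cofactors held genes on both sides, 4 below 0 and 4 above 0, with a median of -0.03. The enzymes of the myelin lipids differed in direction. Arsa, the arylsulphatase that acts on sulphatide (chromosome 15, from 89472476 to 89477425), stood at 8.41, 7.97 and 8.72 FPKM in wild-type animals, against 7.30, 5.92 and 6.57 FPKM in the deficient animals. All 3 deficient nerves were below all wild-type nerves, with a mean 1.27-fold lower and a log2 fold change of -0.31 (SE 0.17, unadjusted p = 0.110, adjusted p = 0.974 from limma) that was -0.29 without both nerves numbered 5. Galc, which degrades galactosylceramide, was at 7.32, 10.6 and 6.77 FPKM in wild-type and at 12.9, 12.6 and 9.53 FPKM in the deficient nerves. The groups overlapped, because wild-type nerve 4 exceeded Plekhg5-deficient nerve 5, and the log2 fold change was 0.47 (SE 0.23, unadjusted p = 0.0788, adjusted p = 0.974 from limma) with all nerves and 0.47 without those numbered 5. The summed Schwann cell markers, at 10760, 19424 and 12037 FPKM in wild-type and 18663, 19038 and 11094 FPKM in Plekhg5-deficient nerves, were high in the same 3 nerves (wild-type 4 and Plekhg5-deficient 2 and 3) that had the highest Galc. Whether the Galc values follow those markers was not tested.

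Ppt1 (chromosome 4, from 122836242 to 122859175) removes palmitate from proteins and is lost in infantile Batten disease. It showed 40.6, 57.3 and 49.5 FPKM in wild-type and 74.6, 76.1 and 59.8 FPKM in Plekhg5-deficient animals, so that the lowest deficient nerve was just above the highest wild-type nerve. The mean was 1.43-fold higher, with a log2 fold change of 0.51 (SE 0.20, unadjusted p = 0.0379, adjusted p = 0.969 from limma). It was 0.62 without both nerves numbered 5, and 0.35 with overlapping groups with FPKM as deposited. An exon of Ppt1 overlaps Cap1 on the opposite strand, which had 112, 132 and 105 FPKM in the wild-type and 163, 174 and 108 FPKM in the deficient animals, high in the 2 deficient nerves in which Ppt1 was highest.

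Psap, the precursor of the saposins that present lipids to hydrolases, was the most abundant of all the genes, at 316, 357 and 297 FPKM in wild-type and 299, 296 and 270 FPKM in Plekhg5-deficient nerves, with a log2 fold change of -0.16. Grn, the progranulin gene, was at 89.4, 116 and 126 FPKM in wild-type and at 85.1, 73.8 and 117 FPKM in the deficient nerves, with a log2 fold change of -0.27. The groups overlapped for both. Npc2, which hands cholesterol to Npc1, had a log2 fold change of -0.32, Asah1, the acid ceramidase, one of 0.26, and Lipa, the acid lipase, one of 0.11.

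**Figure D3:**
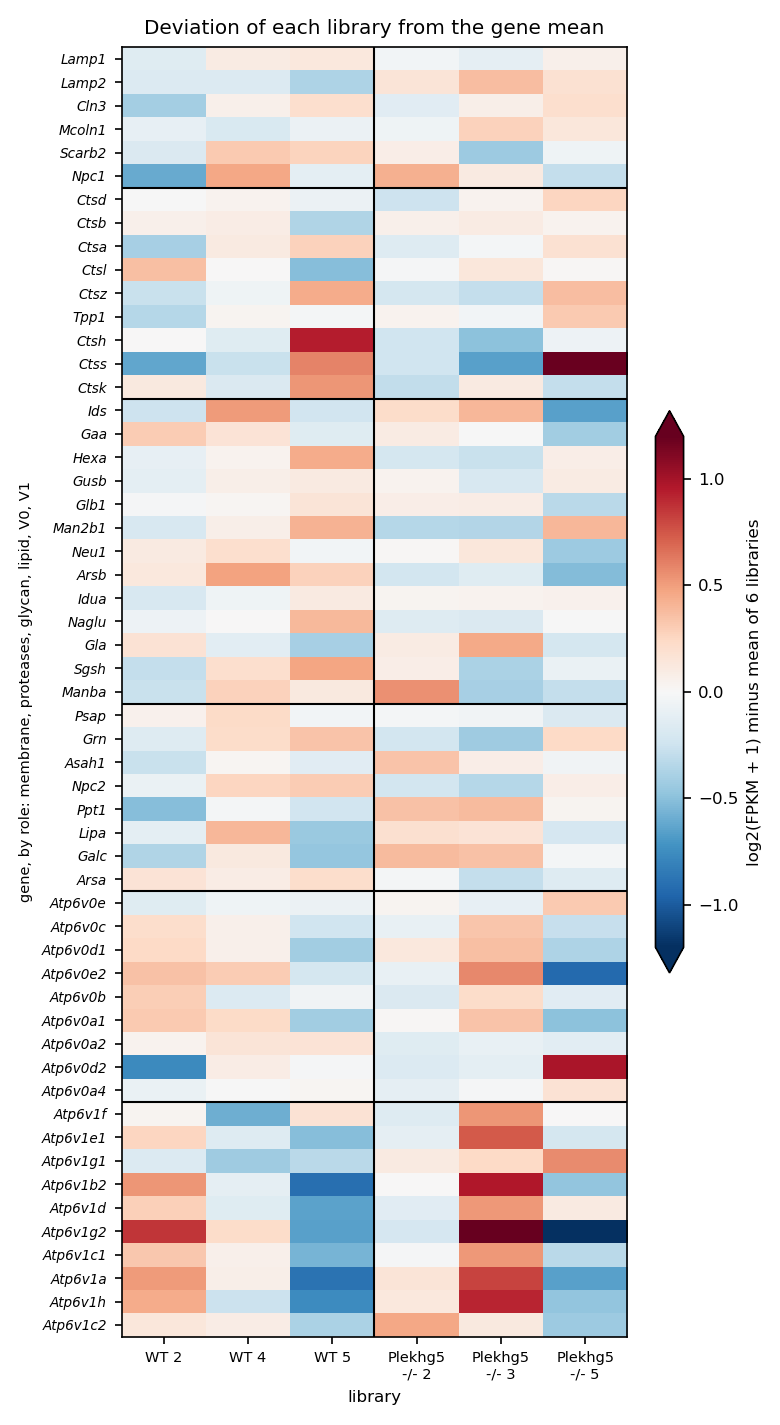
Deviation of each library (x axis, 3 wild-type and 3 Plekhg5-deficient nerves) from the mean of the 6 libraries, in log2(FPKM + 1), for the 55 tested genes (y axis, by role and by falling level within a role); red is above and blue below the mean, and the scale ends at 1.2. Of the 10 V1 genes, 10 are above the mean in Plekhg5-deficient nerve 3 and 9 in wild-type nerve 2, but 1 in wild-type nerve 5 and 3 in Plekhg5-deficient nerve 5, among them Atp6v1g1, which is highest there, whereas Lamp1 and Psap are pale throughout.

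No proton pump gene passed the test, and the V1 genes varied widely between animals. Of the 10 V1 genes tested, 9 had a log2 fold change above 0, with a median of 0.26, and of the 9 V0 genes 4 were above 0, with a median of -0.02. Leaving out 1 library at a time moved the V1 median to between -0.01 and 0.50, and that of V0 to between -0.18 and 0.09. The V1 median was -0.01 without Plekhg5-deficient nerve 3 and 0.01 without wild-type nerve 5, where 5 of the 10 were above 0. All 10 were above 0 when both nerves numbered 5 were left out. The median SE of the V1 genes was 0.32, and that of all genes tested was 0.22.

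Atp6v1g1, a subunit of the pump's peripheral stalk (chromosome 4, from 63544772 to 63550750), had the smallest p of the 55 genes. It stood at 74.9, 62.4 and 66.9 FPKM in wild-type animals, against 90.3, 98.9 and 125 FPKM in the deficient animals, with no overlap. The mean was 68.1 ± 6.36 FPKM in wild-type and 105 ± 18.0 FPKM in Plekhg5-deficient nerves (SD, n = 3 each), 1.54-fold higher, with a log2 fold change of 0.60 (SE 0.19, unadjusted p = 0.0164, adjusted p = 0.857 from limma). It was 0.45 without both nerves numbered 5 and 0.44 with FPKM as deposited, with no overlap in either. The gene has a processed pseudogene, Gm13453, that is 99.4% identical over 357 bases and was itself listed at 89.2, 66.1 and 93.5 FPKM in wild-type and at 83.1, 95.9 and 175 FPKM in the deficient nerves. How reads were divided between the pair is uncertain, and the sum of both was 1.48-fold higher in Plekhg5-deficient nerves.

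Atp6v1f and Atp6v1e1, subunits of the central and the peripheral stalk, were the most abundant V1 genes. Atp6v1f showed 188, 122 and 207 FPKM in wild-type and 164, 264 and 184 FPKM in Plekhg5-deficient animals. Atp6v1e1 had 191, 144 and 112 FPKM in the wild-type and 149, 267 and 138 FPKM in the deficient animals. For both, the groups overlapped and Plekhg5-deficient nerve 3 was the highest, as it was for 8 of the 10 V1 genes. The nucleotide-binding subunits A and B were highest there too: Atp6v1b2 stood at 113, 72.2 and 41 FPKM in wild-type animals, against 78.0, 153 and 55.8 FPKM in the deficient animals, and Atp6v1a at 28.0, 20.3 and 10.02 and at 21.7, 34.7 and 12.01 FPKM. Atp6v1d, Atp6v1h, Atp6v1c1 and Atp6v1c2 had log2 fold changes of 0.33, 0.38, 0.12 and 0.10.

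Within V0, Atp6v0e showed 174, 186 and 183 FPKM in wild-type and 197, 180 and 240 FPKM in Plekhg5-deficient animals. Atp6v0c, which encodes the proteolipid of the rotating ring, was at 215, 194 and 157 FPKM in wild-type and at 174, 234 and 153 FPKM in the deficient nerves, and shares 99.8% of 465 bases with the pseudogene Atp6v0c-ps2, listed at 119 to 246 FPKM. Both had overlapping groups, with log2 fold changes of 0.17 and -0.02. Atp6v0a2 (chromosome 5, from 124629067 to 124722144) had 6.75, 7.35 and 7.42 FPKM in the wild-type and 5.79, 6.05 and 5.88 FPKM in the deficient animals, without overlap. The difference was small, with a mean 1.22-fold lower and a log2 fold change of -0.24 (SE 0.16, unadjusted p = 0.172, adjusted p = 0.974 from limma) that was -0.23 without both nerves numbered 5. Atp6v0d2, known from osteoclasts and macrophages, had the largest value of V0, 0.47, at levels of 0.277, 1.30 and 1.15 FPKM in wild-type and 0.933, 1.01 and 3.29 FPKM in Plekhg5-deficient nerves, of which Plekhg5-deficient nerve 5 was the highest. It was 0.20 without both nerves numbered 5. Atp6v0b, Atp6v0d1, Atp6v0a1, Atp6v0a4 and Atp6v0e2 had log2 fold changes of -0.06, 0.08, -0.09, 0.04 and -0.29.

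The summed V1 level was 750, 530 and 507 FPKM in wild-type and 610, 1017 and 605 FPKM in Plekhg5-deficient nerves, a 2.01-fold range between libraries, and that of V0 spanned a 1.33-fold range. Nerve RNA also held neuronal transcripts in unequal amounts. A list of 8 of them (Nefl, Nefm, Nefh, Prph, Stmn2, Snap25, Uchl1 and Gap43), chosen after the values had been seen, summed to 1703, 795 and 158 FPKM in wild-type and to 900, 2982 and 114 FPKM in Plekhg5-deficient nerves, a 26.2-fold range. Within each genotype the libraries stood in the same order for this sum as for 10 of the 19 pump genes tested, of which 6 were V1 (Atp6v1a, Atp6v1b2, Atp6v1c1, Atp6v1e1, Atp6v1g2 and Atp6v1h) and 4 were V0 (Atp6v0a1, Atp6v0c, Atp6v0d1 and Atp6v0e2). Of the 36 genes outside the pump only Gla had that order, and of all genes tested 10.7% had it. The part of neuronal RNA in the pump values was not tested. In whole nerve, a smaller amount of a cell type or its axons and a lower RNA level within it cannot be told apart.

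A set of genes outside the pump was ordered as the summed macrophage markers were. Among the single markers, Lyz2, Csf1r, Cd163, Itgam and C1qa had that order within both genotypes. Mertk, Cx3cr1, Fcgr1, Aif1, Mrc1, C1qb and C1qc did not, and in the deficient animals Mertk and Cx3cr1 were highest in nerve 2. Lyz2 had the largest values in the sum, at 127, 172 and 281 FPKM in wild-type and 151, 129 and 331 FPKM in the deficient nerves. The summed markers stood at 293, 345 and 666 FPKM in wild-type and at 327, 294 and 692 FPKM in the deficient nerves. Of the 36 genes, 9 had the same order of libraries within each genotype, namely Ctss, Ctsz, Grn, Gusb, Hexa, Lamp1, Man2b1, Naglu and Npc2. None of the 19 pump genes had it, and 5.38% of all genes tested had it. The means of the marker sum, 435 FPKM in wild-type and 438 in Plekhg5-deficient nerves, were close to each other. Single markers went both ways. Of the 12, 1 was lower without overlap (Fcgr1) and 2 were higher (Mertk and Cx3cr1), where 5.88% of all genes were lower and 5.69% higher. The part of macrophage RNA in these values was not tested.

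**Figure D4:**
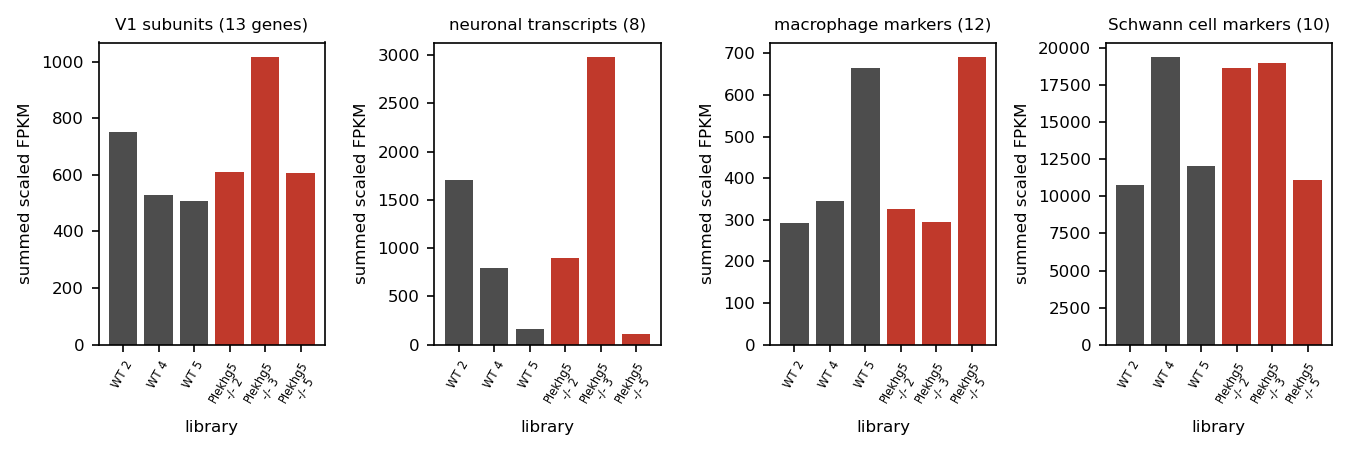
Summed scaled FPKM (y axes, from 0) in each library (x axis) of the 13 V1 genes, 8 neuronal transcripts, 12 macrophage markers and 10 Schwann cell markers, with wild-type in grey and Plekhg5-deficient in red. V1 and neuronal sums are both highest in Plekhg5-deficient nerve 3 (1017 and 2982), and macrophage sums are highest in the nerves numbered 5 (666 and 692).

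Several pump subunits are encoded by more than one gene, and the share of each in nerve was counted from the FPKM. Atp6v1b2 made up all of subunit B, and Atp6v1e1 nearly all of subunit E. Atp6v1c1 made up 94.8% to 99.0% of subunit C, and Atp6v0d1 94.2% to 99.7% of subunit d. Subunit a, which anchors the pump in a given membrane, came mainly from Atp6v0a1, at 32.4% to 55.6%, and from Tcirg1, the a3 gene that the symbols above do not cover, at 35.0% to 57.6%, with Atp6v0a2 at 9.20% to 12.2%. Atp6v0a1 had its lowest shares, 34.8% and 32.4%, in the nerves numbered 5, in which Tcirg1 had its highest. The ranges of the genotypes overlapped for both.

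The shares of Atp6v1g2 and Atp6v0e2 varied widely between animals. Atp6v1g2, the form of subunit G found in neurons, made up 35.1%, 29.3% and 16.9% of subunit G in wild-type and 17.4%, 36.9% and 5.03% in Plekhg5-deficient nerves. It had the largest spread of the 40 genes with at least 10 FPKM, 8.76-fold, from 6.61 to 57.9 FPKM, and had 40.5, 25.8 and 13.7 FPKM in the wild-type and 19.0, 57.9 and 6.61 FPKM in the deficient animals. Its order of libraries was that of the neuronal transcripts, and its log2 fold change was -0.29 with an SE of 0.76. Atp6v0e2 made up 31.6%, 29.5% and 22.7% of subunit e in wild-type and 23.0%, 34.4% and 11.9% in Plekhg5-deficient nerves. The highest share of both genes was in Plekhg5-deficient nerve 3 and the lowest in Plekhg5-deficient nerve 5, and the genotypes overlapped.

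**Figure D5:**
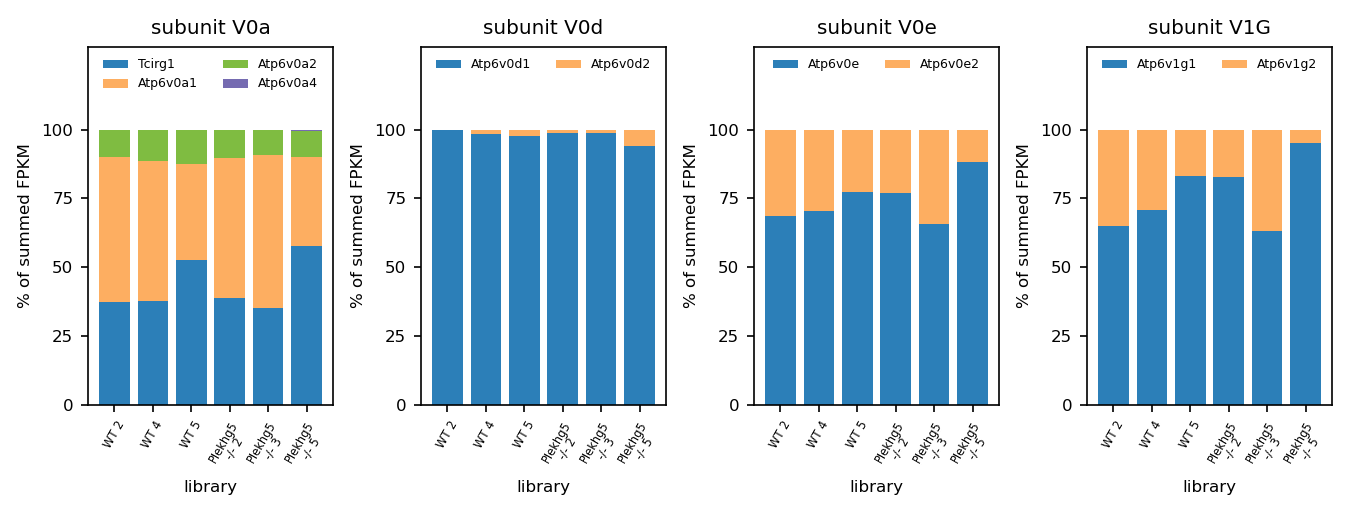
Share of each gene in the summed FPKM of its pump subunit (y axis, percent) in each library (x axis) for subunits V0a, V0d, V0e and V1G. Atp6v1g2 ranges from 5.03% to 36.9% of V1G between Plekhg5-deficient nerves 5 and 3, whereas Atp6v0d1 makes up at least 94.2% of V0d in every library.

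The 8 genes with TCACGTGA in the promoter had log2 fold changes between 0.0011 (Ctsa) and 0.24 (Mcoln1), with a median of 0.13 and all 8 above 0, where 10868 of the 21285 genes tested were above 0. That count depended on the scaling and on 1 library: with FPKM as deposited 4 of the 8 were above 0 (median -0.03), without wild-type nerve 5 it was 5 of the 8, and without both nerves numbered 5 it was 7. The 37 tested genes whose promoter lacked it had a median of -0.08, with 13 above 0 and a range from -0.59 to 0.51. Among the holders of the shorter CACGTG, 9 of 16 were above 0, with a median of 0.01. None of these differences was tested, and no gene in either set passed the test between genotypes.

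A further 37 genes for lysosomal proteins gave no call, with a median log2 fold change of -0.06, 24 below 0 and 13 above 0. The smallest p was that of Scpep1, a serine carboxypeptidase, which stood at 35.6, 39.0 and 36.4 FPKM in wild-type animals, against 18.3, 22.1 and 22.3 FPKM in the deficient animals. The highest deficient nerve was well below the lowest wild-type nerve, with a log2 fold change of -0.80 (SE 0.16, unadjusted p = 0.00167, adjusted p = 0.481 from limma) that was -0.87 without both nerves numbered 5. Pla2g15, the lysosomal phospholipase A2, was at 6.20, 5.39 and 5.86 FPKM in wild-type and at 3.82, 4.32 and 3.98 FPKM in the deficient nerves, with a log2 fold change of -0.44 (SE 0.17, adjusted p = 0.969 from limma), and again -0.44 without both nerves numbered 5. Of the 37 genes, 3 were lower and 2 higher without overlap, where 5.88% of all genes were lower and 5.69% higher.

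Of 28 genes for regulators of lysosomes and for trafficking to them, none was called and none had an unadjusted p under 0.05. The 3 smallest p were those of Tfe3, Vps18 and Tfeb. Tfe3 showed 13.8, 14.3 and 14.6 FPKM in wild-type and 9.96, 13.4 and 9.74 FPKM in Plekhg5-deficient animals, without overlap (log2 fold change -0.35, SE 0.18, adjusted p = 0.974 from limma). Tfeb, the main activator of CLEAR genes, was at 15.5, 14.9 and 24.0 FPKM in wild-type and at 10.3, 10.2 and 18.2 FPKM in the deficient nerves. Its values were highest in the nerve numbered 5 of each genotype and overlapped (log2 fold change -0.48, SE 0.29). Vps18, a subunit of the HOPS tethering complex, was at 3.005, 2.62 and 2.31 FPKM in wild-type and at 1.80, 2.34 and 1.28 FPKM in the deficient nerves, with overlap (log2 fold change -0.39, SE 0.21). Leaving out both nerves numbered 5 gave -0.27 for Tfe3, -0.54 for Tfeb and -0.33 for Vps18. Tfe3 was the 1 gene of the 28 that was lower without overlap, where 5.88% of all genes were lower. The share of all genes that were higher without overlap was 5.69%, and 3 of the 28 were higher. These were Lamtor5, a subunit of the Ragulator complex, at 0.29, Rab7, the small GTPase of late endosomes, at 0.21, and Vps11, a further HOPS subunit, at 0.19. Without both nerves numbered 5 they were at 0.16, 0.08 and 0.15, and with FPKM as deposited at 0.12, 0.04 and 0.04. The highest wild-type and lowest deficient values lay close together, at 68.5 and 68.7 FPKM for Lamtor5, 147 and 151 FPKM for Rab7, and 12.2 and 12.4 FPKM for Vps11. Of the 28, 17 were below 0 and 11 above 0, with a median of -0.04.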

How the data were processed

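Total RNA of whole sciatic nerves was isolated with TRIReagent, made into poly(A) libraries with a Lexogen SENSE kit, and read on an Illumina NextSeq. The deposited values are FPKM, estimated by the authors per library with Cufflinks 2.2.1 after trimming with Trim Galore 0.4.0 and mapping to GRCm38 with STAR. Which annotation and strand setting were used, and how many reads each library had, was not given in the sources used here, so no counting interval was computed.

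Duplicated identifiers (19) were summed over their FPKM. A gene was tested if its mean reached 0.1 FPKM in a genotype, which held for 21285 genes. Each library was divided by its median-of-ratios size factor, and limma 3.58.1 (R 4.3.3) compared the genotypes on log2(FPKM + 1), with a variance trend, no covariate and Benjamini-Hochberg adjustment at 0.05. The fit was tested on simulated data. No test was run on the list as a whole. The genes and lists were chosen with earlier results of these data known. Values in every library are given for genes without overlap, Lamp1, Galc, Arsa, the 2 most abundant genes and the largest fold change of each role, and the 3 smallest p of each further list, of which 1 gene is not reported here; others so given were chosen after their values were seen. Near-identical copies were sought with blastn 2.17.0 against GENCODE transcripts, at 95% identity over 300 bases. Figures were drawn with matplotlib 3.10.9. Alternatives were other pseudocounts and filters, FPKM as deposited, upper quartile scaling, other variance models, a replicate block, and leaving out libraries.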

Additional observations from a re-analysis of the deposited data

How the results depend on the processing

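None of the 55 lysosomal genes was called under any of the 17 alternatives, the smallest adjusted p being 0.294 (Arsb, with array weights). The sign of the log2 fold change held under all 17 for 26 genes, 15 lower and 11 higher. Other filters, no variance trend and a robust variance leave the log2 fold change of a tested gene unchanged, so these alternatives could not turn a sign. FPKM as deposited gave 2 lower and 0 higher genes at an unadjusted p under 0.05, against 3.54% and 1.12% of all genes. Without overlap it gave 8 lower and 1 higher of the 55, against 8.66% and 2.46% of all genes. The medians were then -0.14 for all 55 genes, -0.33 for glycan-degrading enzymes and -0.19 for lipid-degrading enzymes and cofactors. They were -0.026 for membrane proteins and -0.19 for V0. Of all genes, the number called lower was 1 with a pseudocount of 0.1, a minimum of 1 FPKM or a robust variance. It was 0 without a filter, where 2 were called higher. Array weights called 8 lower and 14 higher and put 5 of the 55 genes higher at an unadjusted p under 0.05, where 5.99% of all genes were higher. Without both nerves numbered 5, 0 genes were called lower. An unadjusted p under 0.05 was left to 0 lower and 1 higher of the 55, where 3.48% of all genes were lower and 2.74% higher. Of the 55, 11 lower and 8 higher did not overlap, where 18.3% and 17.9% of all genes did not. Leaving out 1 library at a time called 0 genes lower and 0 to 5 higher. It put 0 to 1 of the 55 lower and 1 to 3 higher at an unadjusted p under 0.05. Of all genes, 1.62% to 3.55% were lower and 1.57% to 2.76% higher at that limit. Without overlap, 4 to 9 were then lower and 4 to 6 higher, where 9.12% to 12.6% of all genes were lower and 9.27% to 11.7% higher. The median of all 55 then ran from -0.061 (without wild-type nerve 5) to 0.079, that of lipid-degrading enzymes and cofactors from -0.14 to 0.12 (without wild-type nerve 4), and that of membrane proteins from -0.079 (without wild-type nerve 2) to 0.18. With fewer libraries, fewer values are left to overlap. The cause of these shifts was not tested.

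The genotypes share the replicate numbers 2 and 5, and nothing in the labels says that a number pairs animals, so the samples share only a number. With a replicate block over these 2 pairs, 0 genes were called lower and 2 higher. An unadjusted p under 0.05 was reached by 2 of the 55 (1 in each direction), where 3.62% of all genes were lower and 1.88% higher. Of the 55, 7 and 8 were lower and higher without overlap, where 14.4% and 14% of all genes were, among these 4 libraries.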

Other observations

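Ratios of 2 genes within a library do not depend on the scaling between libraries. The 2 given here were chosen after their values were seen and carry no test. Lamp2 relative to Lamp1 was 0.523, 0.439 and 0.375 in wild-type nerves 2, 4 and 5 and 0.606, 0.737 and 0.576 in Plekhg5-deficient nerves 2, 3 and 5. Galc relative to Arsa was 0.870, 1.33 and 0.776 in wild-type and 1.77, 2.13 and 1.45 in Plekhg5-deficient nerves. In both ratios the lowest Plekhg5-deficient nerve was above the highest wild-type nerve, and the means were 1.44-fold and 1.80-fold higher.

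Some of the 58 genes are neighbours within 100 kb. Atp6v0a1 and Naglu lie 6.29 kb apart on chromosome 11, Ctsk and Ctss 17.4 kb apart on chromosome 3, and Gaa and Sgsh 58.0 kb apart on chromosome 11. The members of a pair did not share the order of their libraries: Atp6v0a1 was highest in Plekhg5-deficient nerve 3 and Naglu in wild-type nerve 5, and Ctss was highest in Plekhg5-deficient nerve 5 and Ctsk in wild-type nerve 5.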
